A study of Schizosaccharomyces pombe with 72 samples.

Results

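The subtelomeric gene clusters of fission yeast, Schizosaccharomyces pombe, were examined here as 115 sense transcript entries out of 6997 in the deposited tables. They were chosen by name alone, as every entry from the 10 cosmids SPAC212, SPAC977, SPAC750, SPAC186, SPAC869, SPBC1348, SPBPB10D8, SPBPB21E7, SPBPB2B2 and SPBCPT2R1, which cover the ends of chromosomes I and II. The left arm of chromosome I held 30 members, its right arm 28, the left arm of chromosome II 31 and its right arm 26. Of the 115 entries 102 were protein-coding and 13 were pseudogenes. Because these chromosome ends share duplicated blocks, near-identical copies (at least 90% identity over at least 80% of the shorter transcript and at least 50 bases) were joined by single linkage and summed into 20 families holding 60 entries, which with the 55 remaining entries made 75 units. Copies joined only through another copy may share less, and the lowest identity within a family was 81.3%, in the SPAC212.01c family, and at least 90.5% in the others. By the product named in RefSeq these were 1 helicase unit, 3 cell surface units, 12 transporter or channel units, 32 enzyme units, 19 units of other proteins and 8 pseudogene units.

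The ends of the chromosomes in this yeast are packed into heterochromatin, in which histone H3 is methylated at lysine 9 by Clr4 and bound by HP1 proteins such as Swi6. The telomere proteins Taz1 and Rap1, the RNA interference machinery and the SHREC complex, in which the remodeler Mit1 works beside the histone deacetylase Clr3, help to set up and keep this silent state. Genes there are mostly weakly transcribed in rich medium, and many encode transporters and metabolic enzymes that are used under other conditions. tlh1 and tlh2, the telomere-linked helicase genes, lie next to the telomeres and are the usual reporters of subtelomeric silencing.

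The study asked how nucleosome remodelers and the elongation factor Prf1 affect transcription, and its polyadenylated RNA was sequenced strand-specifically in 72 libraries, 3 per group. All strains carried h+ ade6-M216 ura4-D18 leu1-32 and grew untreated in YES rich medium to mid-log phase. Batch 1 of experiment A (A-b1) held the kanMX deletions fft2Δ and fft3Δ (FUN30-group remodelers), hrp1Δ and hrp3Δ (CHD group), mit1Δ, rrp1Δ and rrp2Δ (ULS1 group), irc20Δ and swr1Δ (H2A.Z exchange), with their WT. Batch 2 (A-b2) held the hygMX deletions fft1Δ (FUN30 group) and snf22Δ (a SWI/SNF-type remodeler) with WT. Experiment B held hrp1Δ, hrp3Δ and hrp1Δhrp3Δ (hrp1del::kanMX hrp3del) with WT. Experiment C held hrp3-CT(hrp1) (hrp1del::kanMX hrp3del::hrp3-CT(hrp1)) and hrp1-CT(hrp3) (hrp1del::hrp1-CT(hrp3) hrp3del), both of which lack the remaining CHD gene, with WT. Experiment D held hrp1Δhrp3Δ, prf1Δ and hrp1Δhrp3Δprf1Δ (prf1 encodes an Rtf1-type elongation factor) with WT. Every genotype was 1 strain, so its effect cannot be told apart from other differences of that strain.

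Library totals were 3657 to 38590464 estimated counts (median 6304707), and 5 libraries held under 1000000. In experiment D, 3 libraries stood apart from the median profile of all libraries of the series. They were WT replicate 3 (Pearson r = 0.683 across protein-coding sense entries), hrp1Δhrp3Δ replicate 1 (0.567) and hrp1Δhrp3Δprf1Δ replicate 2 (0.229, with 3657 counts in all). Results of that experiment are given with and without them. WT replicate 1 of A-b1 was high for many members, so counts of that batch are also given without it where they moved. The deleted gene was lower than in WT but still counted in hrp1Δ of A-b1 (hrp1 at 0.689 of WT), swr1Δ (swr1 at 0.516) and hrp3Δ of experiment B (hrp3 at 0.454). It was not lower than in WT in the libraries labelled fft2Δ, rrp1Δ and (A-b1) hrp3Δ, and the same held in experiment C. There hrp1 stood at 0.963 and hrp3 at 0.68 of WT in the libraries labelled hrp3-CT(hrp1), whose genotype lacks hrp1, and hrp1 stood at 0.487 and hrp3 at 1.34 of WT in those labelled hrp1-CT(hrp3), whose genotype lacks hrp3. Of 4491 tested antisense entries, 2737 were called higher in the libraries labelled hrp1-CT(hrp3) and 171 in those labelled hrp3-CT(hrp1). Reads of the inserted C-terminus and an exchange of these 2 labels cannot be told apart here. In experiment D prf1 overlapped WT in both prf1Δ groups and hrp1 did so in hrp1Δhrp3Δ and hrp1Δhrp3Δprf1Δ. A direction in all these groups belongs to the libraries as labelled. CPM values below are counts divided by a library's total, on the usual CPM scale, and are not rescaled, whereas fold changes are log2 values with TMM scaling, which moved the difference from WT by -0.37 to 0.10 in experiments A to C. In experiment D it moved the difference by -0.37 in hrp1Δhrp3Δ, -1.11 in prf1Δ and -1.90 in hrp1Δhrp3Δprf1Δ, and without the 3 libraries by -0.08, -0.38 and -0.20. The median fold change of all sense entries was correspondingly -0.13 in hrp3Δ and -0.19 in hrp1Δhrp3Δ of experiment B and -0.20 in hrp1-CT(hrp3). For experiment D this median stood at -0.56 with hrp1Δhrp3Δ, -0.47 with prf1Δ and -0.77 with hrp1Δhrp3Δprf1Δ, and without the 3 libraries at -0.22, -0.33 and -0.35. Counts of comparisons in which a member was called use all libraries.

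Some copies at different ends are nearly the same in sequence, as the helicase genes show. The coding sequences of tlh1 on chromosome I and tlh2 on chromosome II differed at 1 of 5662 compared bases. The 120 bases around that position (base 303 of tlh1) are printed from RefSeq ASM294v3, 5′ to 3′ on the coding strand, with the differing base in capitals.
tlh1: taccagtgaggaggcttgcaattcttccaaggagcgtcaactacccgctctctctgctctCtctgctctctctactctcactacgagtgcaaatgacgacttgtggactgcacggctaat
tlh2: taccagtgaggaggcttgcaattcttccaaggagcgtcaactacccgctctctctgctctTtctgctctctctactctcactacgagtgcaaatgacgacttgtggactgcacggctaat
Over all libraries tlh2 received 96.8% of the counts of this family, tlh1 0.544% and the helicase-like SPAC212.06c 2.63%, and only the sum is used. The tlh2 entry is 5760 bases long, and its further bases at the 3′ end are not in the tlh1 entry. The split between tlh1 and tlh2 rests on that 1 base and on those further bases, whereas SPAC212.06c shares 90.5% of 474 aligned bases with either. In the malic enzyme family SPBCPT2R1.07c took 60%, SPAC750.08c 28.8% and SPAC212.09c 11.3%. The 4 transporter copies SPBPB10D8.04c to SPBPB10D8.07c received 25% each.

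Most of these genes were weakly expressed in WT. The median over the 75 units of the median level in 15 WT libraries was 4.61 TPM (a level per length), against 14.2 TPM over all sense entries, with 22 units under 1 TPM and 28 at 10 TPM or more. The 5 units above 100 TPM were the aldo/keto reductase family of SPAC750.01 and SPAC977.14c at 536 TPM, the SPBPB10D8.04c transporters at 279 TPM, the ftm1/ftm4/ftm5 family of transmembrane helix proteins at 145 TPM, aes1 (a phenazine biosynthesis family protein) at 131 TPM and the L-asparaginase gene SPAC977.12 at 116 TPM. The helicase family stood at a median of 2.86 TPM, with a lowest value of 0.313 TPM and a highest of 6.04 TPM. Its TPM is a sum over entries of unequal length and need not follow its CPM.

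Across the 19 comparisons with WT, 69 of the 75 units passed the filter on low counts at least once, and 67 of them were called at least once. A unit is called here when its adjusted p is under 0.05 in edgeR's quasi-likelihood test. Called in both directions, depending on the mutant, were 38 units, while 13 were only ever higher and 16 only ever lower. The remaining 6 units were never tested because their counts were too low. These totals describe the spread of the calls, since comparisons within an experiment share their WT libraries. Of the 13 units only ever higher, all except the SPAC977.06 family were tested in only 3 to 8 of the 19 comparisons. Such units were low in WT and could pass the filter mainly through groups in which they were high. Their single direction was therefore partly set by the filter.

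**Figure D1:**
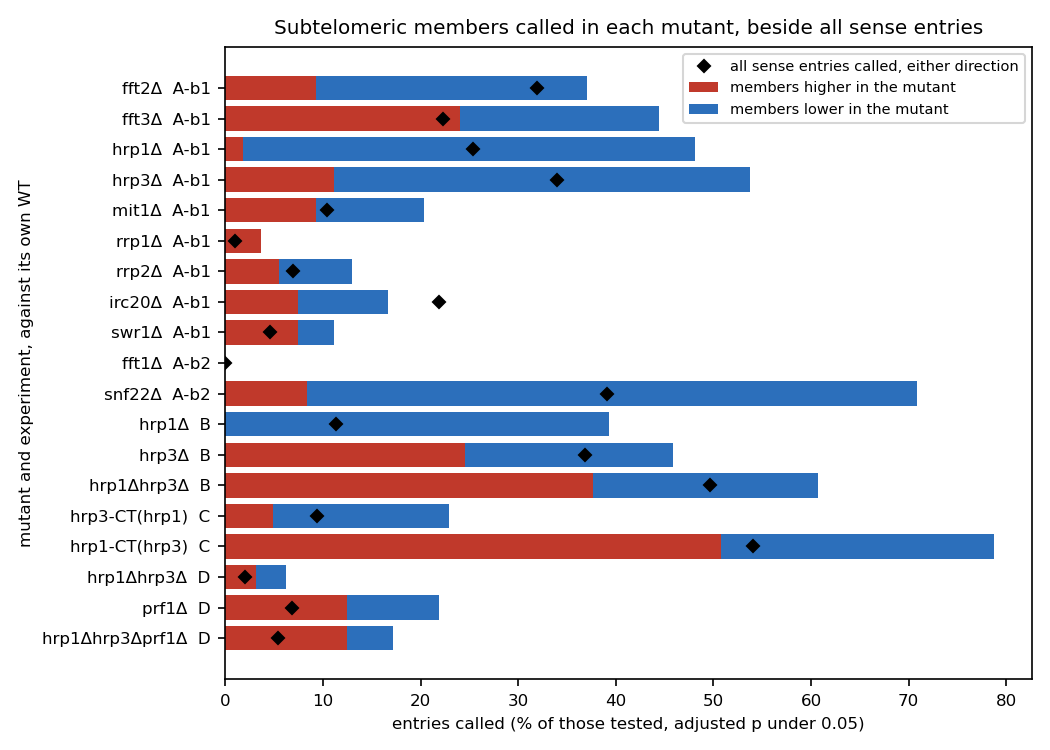
Percent of tested member units called higher (red) and lower (blue) than WT in each of the 19 comparisons, with a diamond at the percent of all sense entries called in the same comparison. The share of members called ranged from 0 in fft1Δ to 48 of 61 units in hrp1-CT(hrp3), and it lay near the diamond in several mutants.

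In A-b1, the mutants differed in direction. Of 54 tested units, the libraries labelled fft2Δ had 5 called higher and 15 lower, where 31.9% of all sense entries were called, and without WT replicate 1 the counts were 3 and 5, against 11.9% of all sense entries. fft3Δ had 13 higher and 11 lower (22.3% of all sense entries). In both groups replicate 1 stood apart, with 2654 CPM over all members in fft2Δ, against 4903 and 4835 CPM in its other replicates, and 2563 CPM in fft3Δ, against 5041 and 4649 CPM. Their TMM factors were 0.683 and 0.725, against 0.909 to 1.14 in the other libraries of the batch. Without its replicate 1 fft2Δ had 4 higher and 11 lower of 54 (28.2% of all sense entries), and fft3Δ 12 and 10 of 55 (13.5% of all). hrp1Δ had 1 higher and 25 lower (25.4% of all sense entries), and 1 and 12 without WT replicate 1 (7.13% of all). The libraries labelled hrp3Δ had 6 higher and 23 lower (34.0% of all sense entries). The share of members called was above that of all entries in fft3Δ (44.4%), hrp1Δ (48.1%) and hrp3Δ (53.7%). In fft2Δ it was close to that of all entries (37%).

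The other deletions of A-b1 had fewer calls among the members. mit1Δ had 5 units higher and 6 lower of 54, against 10.4% of all sense entries, and 4 and 3 without WT replicate 1, when 1.19% of all sense entries were called. irc20Δ had 4 higher and 5 lower (21.9% of all sense entries), and 0 and 2 without that library (0.119% of all). rrp2Δ had 3 higher and 4 lower (6.95% of all sense entries), and without that library only nrg1 stayed called, as higher (0.153% of all). swr1Δ had 4 higher and 2 lower (4.57% of all sense entries), and 4 and 0 without that library (1.33% of all). The libraries labelled rrp1Δ had 2 higher and 0 lower (0.976% of all sense entries), and 1 and 0 without it (0.631% of all). In mit1Δ, irc20Δ, rrp2Δ and rrp1Δ the count of calls thus moved by more than 1.5 times with 1 WT library.

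The counts of A-b1 also changed with the groups in the fit, where the units tested changed too. With only the mutant and WT in the fit, 8 of 45 tested units were called in fft3Δ (4.44% of all sense entries) and 5 of 51 in the libraries labelled fft2Δ (6.92% of all). There were 17 of 47 in hrp1Δ (15.6% of all sense entries), 6 of 47 in mit1Δ (2.25% of all) and 6 of 45 in irc20Δ (10.2% of all). By edgeR 0 units were then called in rrp1Δ, rrp2Δ and swr1Δ, with 10, 13 and 12 at an unadjusted p under 0.05 (0.069%, 0.18% and 0.0188% of all sense entries called).

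In A-b2, with 48 tested units, snf22Δ had 4 units higher and 30 lower, against 39.1% of all sense entries. The median fold change of the members there was -0.85, against 0.00 for all sense entries. fft1Δ had 0 units called by edgeR, with 7 at an unadjusted p under 0.05 and 0 called by DESeq2, and 0.0172% of all sense entries were called. The members thus fell in snf22Δ as a group by count and by median, whereas fft1Δ gave no call.

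In experiment B, with 61 tested units, hrp1Δ had 0 higher and 24 lower, against 11.3% of all sense entries. hrp3Δ had 15 higher and 13 lower (36.8% of all sense entries). hrp1Δhrp3Δ had 23 higher and 14 lower (49.6% of all sense entries), and 28 and 7 with TMM factors from sense entries alone, so that 62.2% or 80% of the calls were higher. In experiment C, also with 61 units, the group labelled hrp3-CT(hrp1) had 3 higher calls and 11 lower ones (9.35% of all sense entries), and the group labelled hrp1-CT(hrp3) had 31 and 17 (54.1% of all sense entries). In every group of experiments B and C the share of members called was above that of all entries. For hrp1Δ and hrp3-CT(hrp1) the members' calls were mostly lower.

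In experiment D, with 64 tested units, hrp1Δhrp3Δ had 2 higher and 2 lower, against 2.05% of all sense entries, and 5 and 1 with factors from sense entries alone (50.0% or 83.3% higher). Without the 3 libraries that stand apart it had 4 and 4 of 70 (12.4% of all sense entries). prf1Δ had 8 higher and 6 lower (6.84% of all sense entries), and 15 and 13 of 70 without those libraries (41.4% of all). hrp1Δhrp3Δprf1Δ had 8 higher and 3 lower (5.44% of all sense entries), and 19 and 7 of 70 without them (33.6% of all). In both prf1Δ strains the share of members called exceeded that of all entries with all libraries, while without the 3 libraries it was close to that of all entries.

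**Figure D2:**
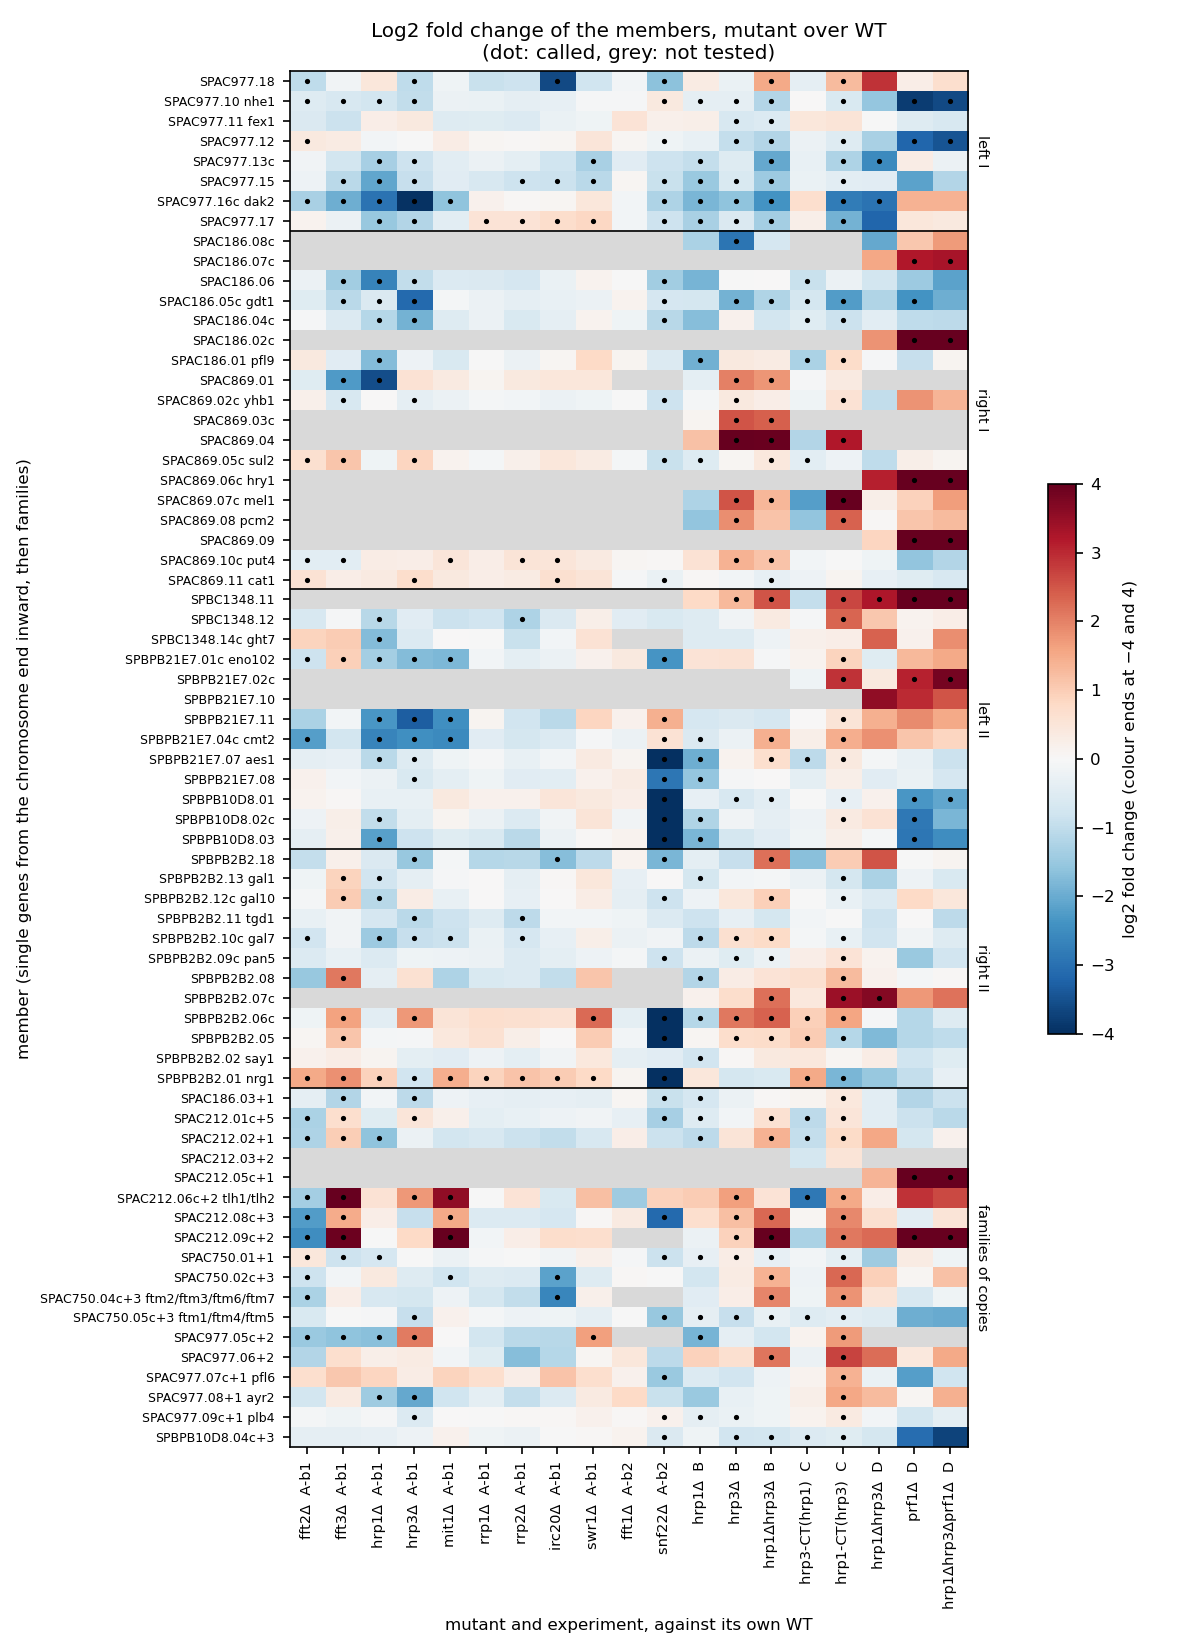
Log2 fold change against WT (colour) of the 69 tested member units in the 19 comparisons, with a dot on each call and grey where a unit was not tested. The snf22Δ and hrp1Δ columns were mostly lower, hrp1-CT(hrp3) was mostly higher, and dak2 was called lower in 11 comparisons and higher in 0.

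The helicase family of tlh1 and tlh2, RecQ-type DNA helicases, was higher in fft3Δ and mit1Δ. It had 99.7, 95.5 and 155 CPM in fft3Δ and 80.3, 68.5 and 97.2 CPM in mit1Δ, against 5.51, 13.3 and 5.80 CPM in WT. All 6 mutant libraries stood above all 3 WT libraries. The log2 fold change was 4.10 ± 0.34 in fft3Δ (SE, edgeR adjusted p = 5.29e-09) and 3.54 ± 0.34 in mit1Δ (9.62e-08), and without WT replicate 1 it was 3.71 (8.09e-07) and 3.16 (2.1e-05). The libraries labelled hrp3Δ had 32.1, 17.4 and 27.7 CPM, also above every WT library (1.75, adjusted p = 0.000315). In the libraries labelled fft2Δ it was lower, at 1.63, 3.40 and 1.09 CPM (-1.35, adjusted p = 0.0138), a call that was lost without WT replicate 2 or without fft2Δ replicate 1. In TPM the fft2Δ libraries (0.668, 1.45 and 2.02 TPM) overlapped WT (2.43, 0.857 and 1.16 TPM). swr1Δ had 13.7, 12.3 and 22.5 CPM, 1 of which lay inside the WT range, and was not called (1.202, edgeR adjusted p = 0.0622).

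In the libraries labelled as C-terminus strains the family moved in opposite directions. It had 5.46, 4.13 and 6.43 CPM in those labelled hrp3-CT(hrp1), against 40.0, 39.9 and 35.7 CPM in WT. The libraries labelled hrp1-CT(hrp3) had 125, 130 and 129 CPM. The 3 groups did not overlap, and the log2 fold change was -2.84 ± 0.14 in hrp3-CT(hrp1) (edgeR adjusted p = 2.68e-07) and 1.504 in hrp1-CT(hrp3) (2.77e-07). The direct difference, hrp1-CT(hrp3) minus hrp3-CT(hrp1), was 4.35 ± 0.14 (edgeR adjusted p = 1.07e-09).

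WT libraries of the remaining experiments spread widely for the helicase family. In experiment B hrp3Δ had 133, 69.4 and 93.5 CPM, against 61.6, 16.8 and 2.697 CPM in WT. The hrp3Δ libraries stood above WT (1.65, edgeR adjusted p = 0.0250), but the call was lost with DESeq2 and without WT replicate 2, WT replicate 3 or hrp3Δ replicate 1. In experiment D prf1Δ had 252, 380 and 427 CPM and hrp1Δhrp3Δprf1Δ had 263, 0 and 484 CPM, against 8.71, 30.6 and 19.3 CPM in WT. With all libraries neither was called (2.88, edgeR adjusted p = 0.0573, and 2.65, 0.0856), and without the 3 libraries both were (3.80, 0.000309, and 4.06, 0.000409). In A-b2 snf22Δ had 25.8, 16.2 and 26.9 CPM, against 20.7, 11.2 and 5.51 CPM in WT, which overlapped (0.91, edgeR adjusted p = 0.0545).

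**Figure D3:**
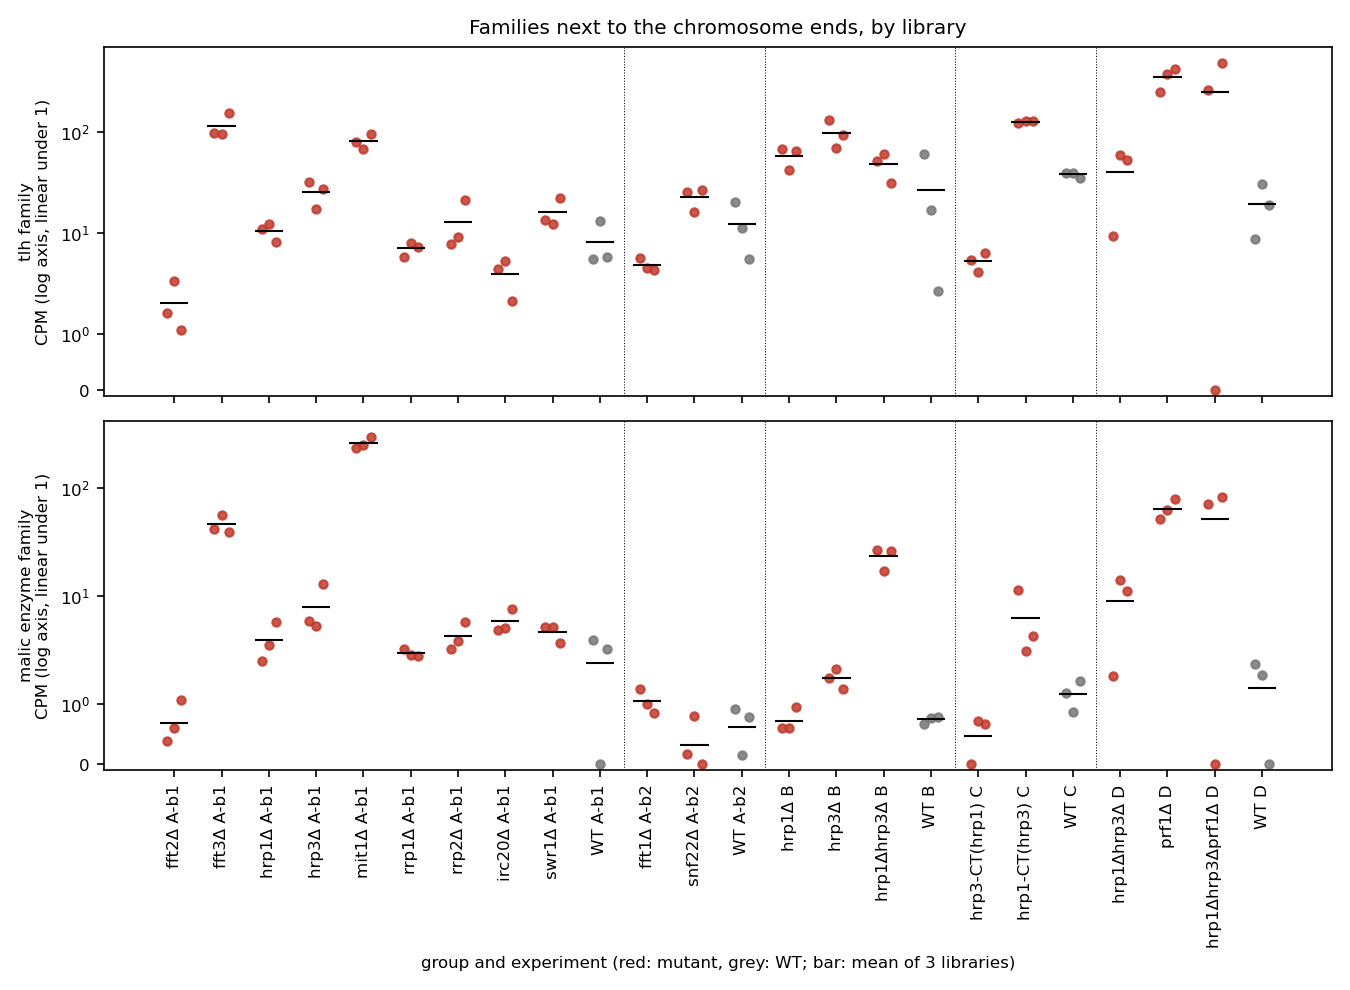
CPM per library (symmetric log axis) of the helicase family and the malic enzyme family, 1 point per library, with each mutant group in red left of its own WT in grey. The helicase family lay above all libraries of its own WT in fft3Δ, mit1Δ, both hrp3Δ groups, hrp1-CT(hrp3) and prf1Δ. It lay below all of them in fft2Δ, irc20Δ and hrp3-CT(hrp1). The malic enzyme family stood highest in mit1Δ at 233 to 293 CPM.

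The neighbouring malic enzyme family (SPAC750.08c, annotated as an NAD-dependent malic enzyme, and the pseudogene copies SPAC212.09c and SPBCPT2R1.07c) was higher in 7 comparisons and lower in 1. It had 233, 247 and 293 CPM in mit1Δ and 41.7, 56.6 and 39.2 CPM in fft3Δ, against 3.88, 0 and 3.22 CPM in WT. The mutant libraries all stood above WT, with a log2 fold change of 6.34 in mit1Δ (edgeR adjusted p = 1.55e-14) and 3.92 in fft3Δ (1.62e-09), and 7.10 and 4.69 without WT replicate 1. hrp1Δhrp3Δ of experiment B had 26.6, 17.2 and 26.1 CPM, against 0.673, 0.765 and 0.787 CPM in WT (4.58, edgeR adjusted p = 8.71e-09). hrp3Δ there had 1.74, 2.09 and 1.39 CPM, also above each WT library but far nearer to it (0.94, adjusted p = 0.0435). In experiment D prf1Δ had 51.8, 62.3 and 78.5 CPM, against 2.36, 1.87 and 0 CPM in WT (4.60, edgeR adjusted p = 0.00193, and 4.51, 3.55e-05, without the 3 libraries). The single lower call, in the libraries labelled fft2Δ (-2.47), was lost without WT replicate 1 (-1.71, edgeR adjusted p = 0.159), and the call in hrp1-CT(hrp3) (2.095, 0.0076) was lost without its replicate 1. In experiments B, C and D this family was low in WT and could pass the filter on low counts mainly through groups in which it was high. Its p-values there are thus no separate support for the rise, and its count of higher calls was partly set by the filter.

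Of the cell surface units, the family of GPI-anchored proteins next to the helicase genes (SPAC212.08c and 3 copies) was higher in 5 comparisons and lower in 2. It had 14.9, 23.2 and 23.6 CPM in mit1Δ and 13.3, 25.2 and 19.96 CPM in fft3Δ, against 10.8, 3.55 and 3.22 CPM in WT. The mutant libraries stood above WT by 1.53 (edgeR adjusted p = 0.0193) and 1.49 (0.00833). hrp1Δhrp3Δ of experiment B had 7.52, 8.17 and 8.16 CPM, against 0.808, 1.42 and 1.46 CPM in WT (2.29, edgeR adjusted p = 0.000117). In hrp1-CT(hrp3) all 3 cell surface units were higher, by 0.74 to 1.93, beside 31 higher of all 61 member units and 790 higher of 6161 sense entries (54.1% called).

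Among transporters and channels, nrg1 (SPBPB2B2.01, an amino-acid permease) was the member called most often, higher in 9 comparisons and lower in 3. It had 67.5, 84.8 and 79.1 CPM in fft3Δ and 65.3, 59.8 and 60.2 CPM in mit1Δ, against 20.7, 24.0 and 25.2 CPM in WT. Both groups lay above WT (1.82, edgeR adjusted p = 2.46e-08, and 1.45, 2.52e-06), and so did fft2Δ, hrp1Δ, rrp1Δ, rrp2Δ, irc20Δ and swr1Δ of the same batch, by 0.79 to 1.53. Without WT replicate 1 it was no longer called in rrp1Δ (0.75, edgeR adjusted p = 0.114), irc20Δ (0.88, 0.0682) or swr1Δ (0.67, 0.111). hrp3-CT(hrp1) had 49.3, 51.1 and 54.98 CPM and hrp1-CT(hrp3) 6.29, 4.42 and 6.71 CPM, against 15.6, 22.0 and 16.7 CPM in WT, so that the strains lay on opposite sides of WT (1.52 and -1.82). In snf22Δ no count of nrg1 was seen in 16677741, against 19.1, 19.9 and 26.7 CPM in WT. With 3 counts over the group as the floor and TMM-scaled totals (0.187 CPM), nrg1 was at least 114-fold lower in snf22Δ than the 21.2 CPM of WT (119-fold with library totals), which covers counting error only.

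The other transporters differed from nrg1. nhe1, the sodium ion/proton antiporter, was lower in 10 comparisons and higher in 1. In prf1Δ it had 48.1, 42.9 and 42.6 CPM, against 163, 119 and 316 CPM in WT, with no overlap (-3.79, edgeR adjusted p = 0.0153, and -2.04, 0.000192, without the 3 libraries). The cysteine transporter gene SPBPB10D8.01 had 2.48, 1.58 and 1.43 CPM in snf22Δ, against 41.7, 45.7 and 49.9 CPM in WT (-4.53 ± 0.16, edgeR adjusted p = 2.20e-10). put4, the proline transporter gene, had 350, 313 and 285 CPM in hrp3Δ and 245, 222 and 366 CPM in hrp1Δhrp3Δ, against 89.8, 104 and 100 CPM in WT of experiment B (1.40 and 1.13), with both groups above WT. The transporter family of SPAC750.02c and 3 copies had 33.8, 30.9 and 34.7 CPM in hrp1-CT(hrp3), against 5.73, 6.28 and 5.31 CPM in WT (2.29, edgeR adjusted p = 2.13e-07). In irc20Δ that family had 3.33, 6.64 and 5.36 CPM, against 25.7, 16.9 and 27.1 CPM in WT of A-b1 (-2.14, and -2.05 without WT replicate 1), again with no overlap.

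SPAC977.17, a channel protein of the MIP family that includes aquaporins, was lower in 7 comparisons and higher in 4. It had 55.03, 50.4 and 59.4 CPM in hrp1-CT(hrp3), against 169, 162 and 195 CPM in WT (-1.89, edgeR adjusted p = 1.75e-07). In swr1Δ it had 185, 119 and 158 CPM, against 88.5, 81.6 and 100 CPM in WT of A-b1 (0.82, edgeR adjusted p = 0.0015, and 0.80, 0.0148, without WT replicate 1). The swr1Δ libraries lay above WT, and the higher calls in irc20Δ, rrp1Δ and rrp2Δ were lost without that WT library (edgeR adjusted p = 0.0701, 0.197 and 0.243).

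Among the enzymes, dak2, which encodes dihydroxyacetone kinase of glycerol use, was lower in 11 of 19 comparisons and, with all libraries, higher in 0. In A-b1 it had 44.3, 46.0 and 46.8 CPM in the libraries labelled hrp3Δ and 75.8, 79.0 and 103 CPM in hrp1Δ, against 782, 475 and 640 CPM in WT. That is a fall of 3.96 (edgeR adjusted p = 2.64e-13) and of 2.97 (4.36e-11), and the remaining called groups of that batch (fft2Δ, fft3Δ, mit1Δ) also lay below all WT libraries. In experiment B hrp1Δhrp3Δ had 16.9, 14.0 and 14.9 CPM, hrp1Δ 20.8, 19.3 and 17.9 CPM and hrp3Δ 26.2, 26.0 and 22.3 CPM, against 61.8, 65.3 and 59.1 CPM in WT. The 3 mutants lay below WT by 2.39, 1.84 and 1.60. WT itself stood at 475 to 782 CPM in A-b1 and at 59.1 to 65.3 CPM in experiment B, so only fold changes within an experiment are used.

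In the libraries labelled as C-terminus strains dak2 had 542, 440 and 855 CPM in hrp3-CT(hrp1) and 82.4, 54.97 and 58.8 CPM in hrp1-CT(hrp3), against 373, 346 and 447 CPM in WT. Only hrp1-CT(hrp3) was called (-2.80, edgeR adjusted p = 7.38e-07), and hrp3-CT(hrp1) overlapped WT. In experiment D hrp1Δhrp3Δ had 4.05, 7.12 and 6.20 CPM, against 48.5, 16.1 and 28.4 CPM in WT, without overlap (-2.97, edgeR adjusted p = 0.0367, and -2.36, 0.00352, without the 3 libraries). In prf1Δ, by contrast, dak2 had 183, 219 and 173 CPM, above every WT library. It was not called there with all libraries (1.38, edgeR adjusted p = 0.283) and was higher without the 3 libraries (2.19, 0.00107). Its neighbour SPAC977.15, a dienelactone hydrolase family gene, was likewise lower in 11 comparisons and higher in 0.

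**Figure D4:**
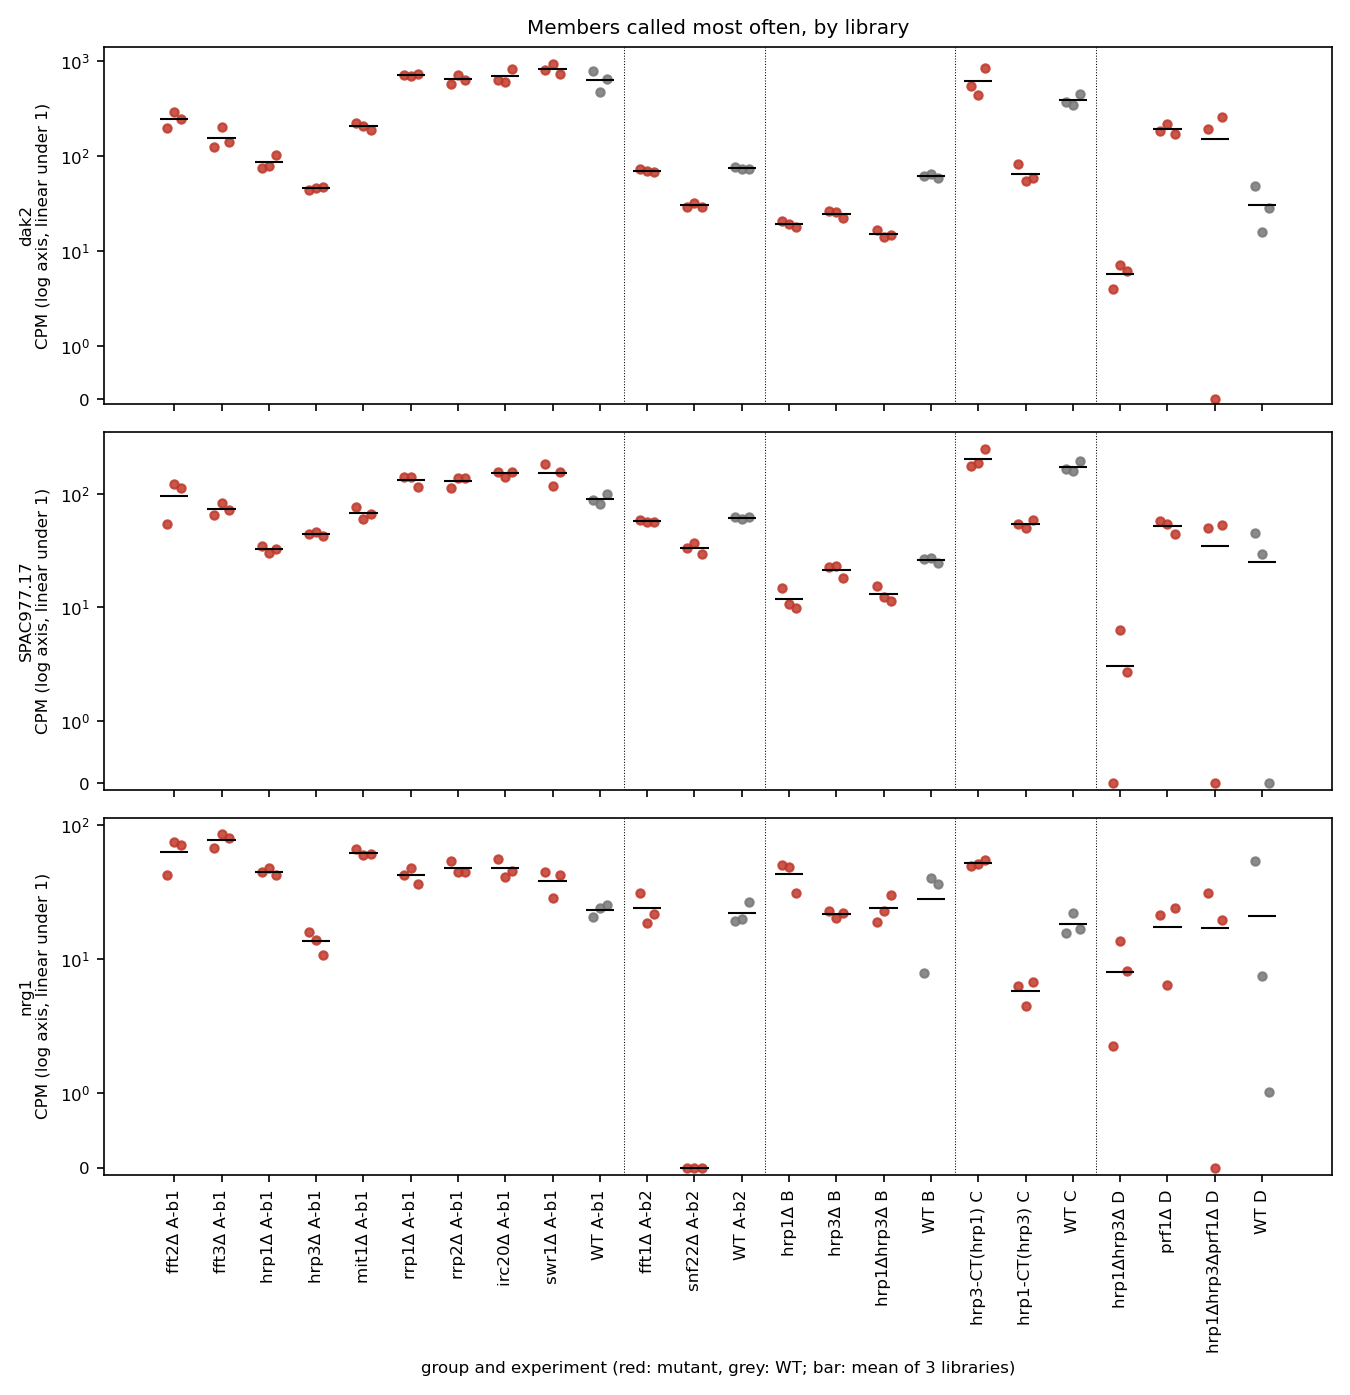
CPM per library of dak2, SPAC977.17 and nrg1, 1 point per library, with each mutant group in red left of its own WT in grey. dak2 lay below WT in all CHD deletion groups of experiments A and B, at 14.0 to 26.2 CPM in experiment B, and nrg1 was at 0 in the 3 snf22Δ libraries.

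The galactose genes gal7, gal10 and gal1, which encode the uridylyltransferase, epimerase and kinase of galactose use, lie together on the right arm of chromosome II. gal7 was lower in 7 comparisons and higher in 2. In hrp1Δ it had 30.7, 28.5 and 26.5 CPM in A-b1, against 104, 57.7 and 54.2 CPM in WT (-1.44, edgeR adjusted p = 1.46e-05, and -1.02, 0.000957, without WT replicate 1), and 10.9, 9.89 and 9.03 CPM in experiment B, against 18.3, 20.7 and 16.7 CPM in WT (-1.06, 3.40e-05). hrp1Δ lay below WT in both. In experiment B hrp3Δ had 34.6, 35.4 and 35.5 CPM and hrp1Δhrp3Δ 39.0, 38.8 and 43.2 CPM of gal7, above every WT library (0.64 and 0.76). gal10 had 33.0, 26.9 and 24.8 CPM in hrp1Δhrp3Δ, against 10.1, 14.3 and 9.66 CPM in WT (0.95, edgeR adjusted p = 0.00049). In snf22Δ gal10 had 34.3, 35.0 and 34.7 CPM, against 57.1, 61.0 and 76.8 CPM in WT (-0.82, edgeR adjusted p = 9.77e-05). gal1 had 70.8, 61.3 and 71.2 CPM in hrp1-CT(hrp3), against 94.0, 85.2 and 104 CPM in WT, without overlap (-0.70, edgeR adjusted p = 1.13e-05).

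In snf22Δ 14 of 21 tested enzyme units were lower and 2 higher, beside 30 lower and 4 higher of all 48 member units and 1111 lower and 1158 higher of 5810 sense entries (39.1% called). aes1 had 10.9, 7.52 and 8.96 CPM in snf22Δ, against 140, 147 and 183 CPM in WT (-4.002 ± 0.14, edgeR adjusted p = 1.16e-10). The arylsulfatase gene SPBPB10D8.02c had 2.48, 1.78 and 0.896 CPM, against 41.1, 47.5 and 53.2 CPM in WT (-4.67 ± 0.21, edgeR adjusted p = 1.82e-09). SPBPB2B2.05, a class I glutamine amidotransferase gene, had 0.166, 0.594 and 0 CPM, against 9.01, 7.59 and 7.86 CPM in WT (-4.91). These genes lay far below every WT library. The phosphoprotein phosphatase gene SPBPB2B2.06c had 0 counts in all 3 snf22Δ libraries, against 12.0, 13.4 and 26.0 CPM in WT, and was thus at least 86.0-fold lower by the same floor with TMM-scaled totals (90.4-fold with library totals). Higher in snf22Δ was cmt2, a catechol O-methyltransferase gene, at 180, 159 and 168 CPM, against 104, 115 and 141 CPM in WT (0.58, edgeR adjusted p = 0.0032).

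SPBPB2B2.06c was higher in 7 comparisons and lower in 2. It had 121, 104 and 155 CPM in hrp1Δhrp3Δ and 108, 89.0 and 105 CPM in hrp3Δ, against 9.02, 24.3 and 23.5 CPM in WT of experiment B. Both mutants stood above WT (2.35, edgeR adjusted p = 1.97e-06, and 2.1, 1.11e-05), whereas hrp1Δ had 8.52, 11.8 and 8.49 CPM and overlapped it while called lower (-1.15, 0.0208). In swr1Δ it had 48.8, 24.1 and 34.0 CPM, against 7.38, 5.32 and 10.3 CPM in WT of A-b1 (2.26, edgeR adjusted p = 0.000309, and 2.17, 0.00731, without WT replicate 1). cmt2 was lower in 5 comparisons and higher in 3. It had 19.7, 26.6 and 26.5 CPM in hrp1Δ of A-b1, against 122 and 78.7 CPM in WT replicates 2 and 3 and a higher value in WT replicate 1 (-2.65, and -2.14 without that library), and 148, 120 and 131 CPM in hrp1Δhrp3Δ, against 42.7, 36.4 and 36.3 CPM in WT of experiment B (1.42). Neither pair overlapped.

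The libraries labelled as C-terminus strains also differed in enzymes of low level in WT. mel1, the melibiase gene, had 9.70, 10.4 and 11.4 CPM in hrp1-CT(hrp3), against 0.629, 0.108 and 0.325 CPM in WT (4.51, edgeR adjusted p = 6.44e-06). pcm2, a protein-L-isoaspartate O-methyltransferase gene, had 6.42, 10.2 and 8.26 CPM in hrp1-CT(hrp3), against 0.629, 2.17 and 1.41 CPM in WT (2.36, edgeR adjusted p = 0.000358). Both lay above WT. mel1 was also higher in hrp3Δ of experiment B, at 5.33, 4.91 and 9.0 CPM, against 0.808, 0.874 and 1.01 CPM in WT (2.52, edgeR adjusted p = 0.000219). mel1 and pcm2 were each tested in only 8 comparisons. Both were low in WT and could pass the filter on low counts mainly through groups in which they were high. Their p-values are thus no separate support for a rise, and their single direction was partly set by the filter. In hrp3-CT(hrp1) SPBPB2B2.05 had 74.9, 64.9 and 54.3 CPM, against 33.6, 23.2 and 38.8 CPM in WT (1.02, edgeR adjusted p = 0.00166), and aes1 had 111, 89.4 and 99.2 CPM, against 212.4, 181 and 227 CPM in WT (-1.05, 2.67e-05).

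Among other proteins, gdt1, a gene for a GDT1-like protein, was lower in 9 comparisons and higher in 0. In hrp1-CT(hrp3) it had 24.5, 20.8 and 24.9 CPM, against 95.9, 97.2 and 88.9 CPM in WT (-2.23, edgeR adjusted p = 2.82e-08). The A-b1 libraries under the hrp3Δ label had 39.6, 39.0 and 40.4 CPM, against 335, 303 and 279 CPM in WT (-3.10, 3.48e-10). Neither pair overlapped. SPBC1348.12, a transcription factor gene, had 30.9, 26.7 and 30.8 CPM in hrp1-CT(hrp3), against 3.98, 6.28 and 4.99 CPM in WT (2.32, edgeR adjusted p = 9.94e-07). SPAC977.18, an uncharacterized protein gene, had 4.81, 6.08 and 6.43 CPM in irc20Δ, against 87.9, 44.4 and 65.8 CPM in WT of A-b1, and was still called without WT replicate 1 (-3.60, edgeR adjusted p = 2.93e-08, and -3.31, 1.23e-06).

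Some members at or near 0 in WT were higher in prf1Δ. hry1, a gene for a cation-binding HHE domain protein, had 11.3, 12.0 and 14.8 CPM in prf1Δ and no count among 8897207 in WT, and with 3 counts over the WT group as the floor and TMM-scaled totals (0.489 CPM) it was at least 21.4-fold higher in prf1Δ. Without the 3 libraries this bound was 22.5-fold, and with library totals it was 37.6-fold with all libraries and 29.2-fold without the 3. The pseudogene family of SPAC212.05c and SPBCPT2R1.05c had 34.1, 68.7 and 93.7 CPM in prf1Δ, against 0.471, 0.373 and 0.507 CPM in WT (6.19, edgeR adjusted p = 0.00192, and 6.78, 8.22e-05, without the 3 libraries). The hydroxyacid dehydrogenase gene SPAC186.02c had 18.6, 46.4 and 43.9 CPM in prf1Δ, against 0.942, 0 and 0 CPM in WT (5.62, edgeR adjusted p = 0.00168, and 5.58, 0.000384, without the 3 libraries). All of these lay above every WT library. They were tested only in the 3 comparisons of experiment D. With WT at or near 0, they passed the filter on low counts only through groups in which they were high. Their p-values are thus no separate support for the rise. The pseudogene SPBC1348.11 was higher in 6 of the 8 comparisons in which it was tested and lower in 0. It had 19.6, 22.9 and 75.8 CPM in prf1Δ, against 1.65, 1.12 and 0 CPM in WT (4.41, edgeR adjusted p = 0.00664, and 4.37, 0.00109, without the 3 libraries). SPAC977.12 was lower, at 100, 99.2 and 101 CPM in prf1Δ, against 254, 270 and 433 CPM in WT (-3.19, edgeR adjusted p = 0.0351, and -1.77, 0.000702, without the 3 libraries). In hrp1Δhrp3Δ of that experiment SPBPB2B2.07c, an uncharacterized protein gene, had 11.3, 11.0 and 7.28 CPM, against 0.707, 0.373 and 1.01 CPM in WT (3.67, edgeR adjusted p = 0.0102, and 3.85, 0.00513, without the 3 libraries). SPBC1348.11 and SPBPB2B2.07c were each tested in 8 of the 19 comparisons. Both were low in WT and could pass the filter mainly through groups in which they were high. Their p-values are thus no separate support for a rise either, and their single direction was partly set by the filter.

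Along the chromosomes, calls in 1 direction lay side by side in several mutants. The longest run over all arms and both directions is given as a description, and whether it exceeds what the number of calls alone gives was not tested. In snf22Δ the longest run was 10 neighbouring members called lower on the left arm of chromosome II, from SPBPB21E7.07 (aes1) to SPBPB10D8.07c, of which 4 are copies summed in 1 unit. In that mutant 30 of 48 member units and 1111 of 5810 sense entries were lower. In hrp1Δhrp3Δ of experiment B the longest run was 8 members lower on the left arm of chromosome I, from SPAC977.10 (nhe1) to SPAC977.17, where 7 of 8 single-copy units were lower and 1 higher. There 14 of 61 member units and 2302 of 6185 sense entries were lower. With TMM factors from sense entries SPAC977.11 (-0.35, edgeR adjusted p = 0.2) and the SPAC977.14c family (-0.13, 0.204) were no longer called, so that 6 single-copy units stayed lower and the longest run became 5 members higher on the right arm, SPAC869.01 to SPAC869.05c. Under those factors the longest runs of snf22Δ, hrp1Δ and hrp1-CT(hrp3) held the same members. In hrp1Δ the 5 members from SPAC977.13c to SPAC977.17 were lower in A-b1 and in experiment B alike. In A-b1 25 of 54 member units and 750 of 5838 sense entries were lower in hrp1Δ, and in experiment B 24 of 61 and 407 of 6185. In the libraries labelled hrp1-CT(hrp3) 8 neighbours on the left arm of chromosome II, SPBC1348.05 to SPBC1348.12, were higher, 6 of them as part of families summed with copies elsewhere. In those libraries 13 of 17 families were higher and 3 lower, against 18 and 14 of 44 single-copy units, a split given as a description. Of all 6161 sense entries 790 were higher and 2542 lower there (54.1% called).

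**Figure D5:**
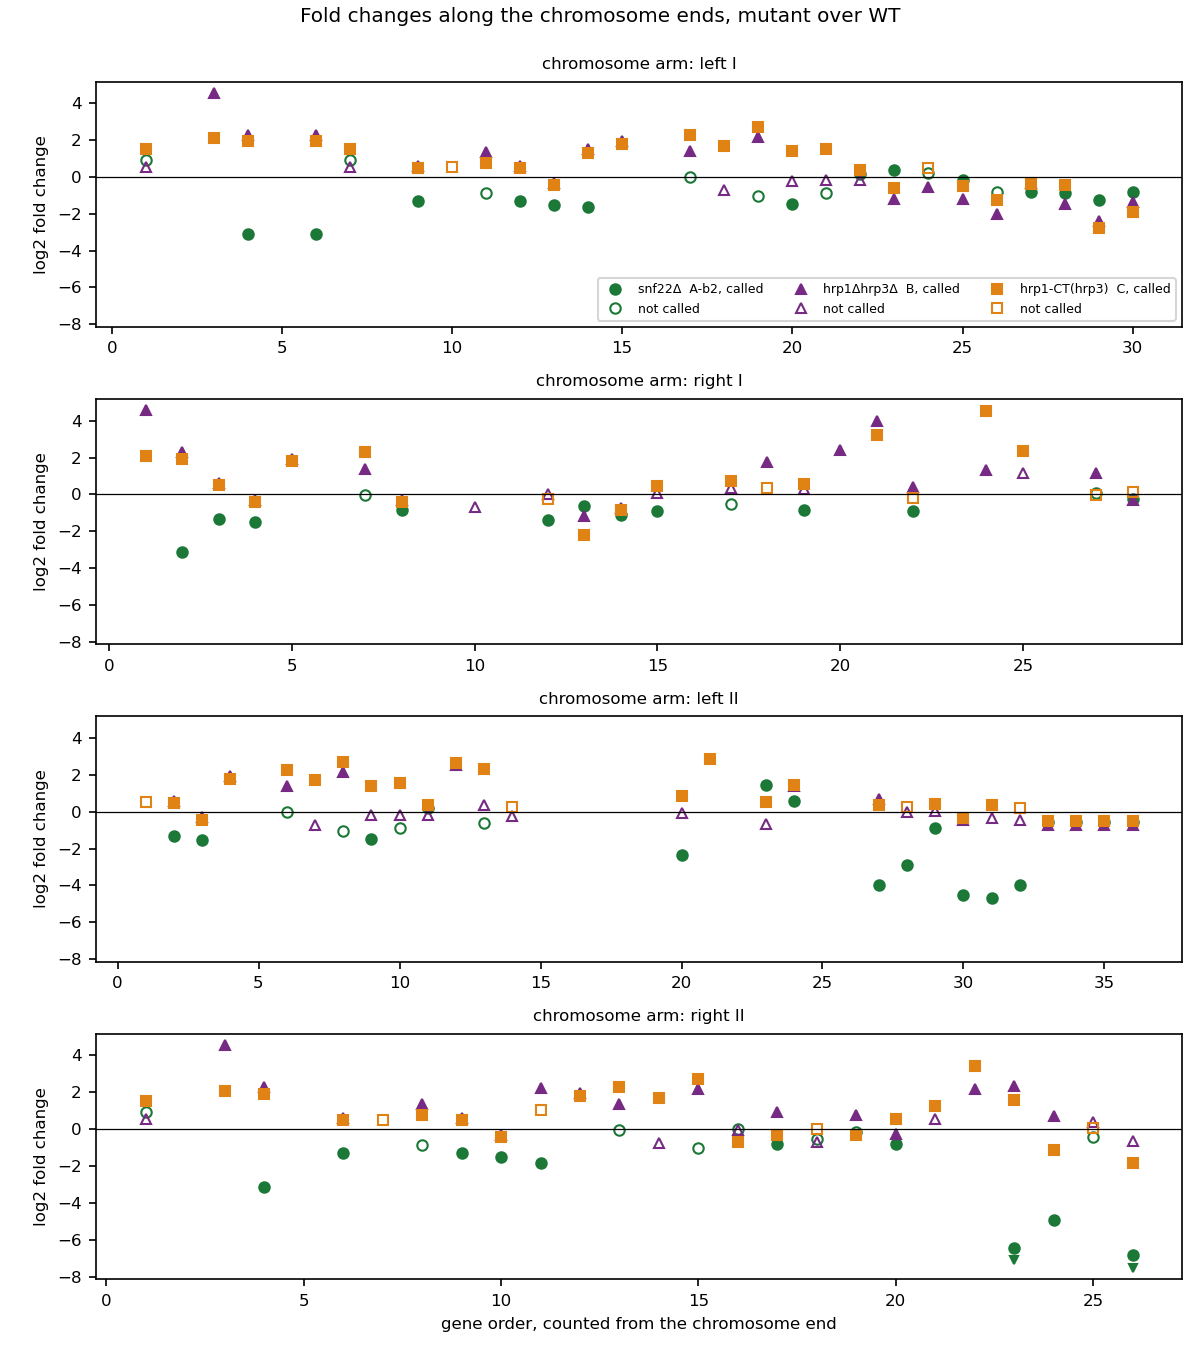
Log2 fold change of members by gene order from the chromosome end on the 4 arms, in snf22Δ, hrp1Δhrp3Δ of experiment B and hrp1-CT(hrp3), with filled points for calls, open points for units not called and a small down triangle under each snf22Δ member at 0, whose point is drawn at the bound of its fold with TMM-scaled totals. The left arm of chromosome I was mostly lower in hrp1Δhrp3Δ, where 7 of 8 single-copy units were called lower (6 with TMM factors from sense entries). Of all 6185 sense entries 2302 were called lower in that mutant.

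Set directly against each other, fft3Δ differed from the libraries labelled fft2Δ in 19 of 54 units, 13 higher and 6 lower, against 4.21% of all sense entries. The malic enzyme family had the largest difference, at 6.40 (edgeR adjusted p = 2.55e-13), followed by the helicase family at 5.44 (1.22e-11). The libraries labelled hrp1-CT(hrp3) differed from those labelled hrp3-CT(hrp1) in 46 of 61 units, 33 higher and 13 lower, against 57.6% of all sense entries, and 37 and 8 with factors from sense entries alone (71.7% or 82.2% higher). mel1 had 9.70, 10.4 and 11.4 CPM in hrp1-CT(hrp3), against 0, 0 and 0.192 CPM in hrp3-CT(hrp1), and nrg1 had 6.29, 4.42 and 6.71 CPM, against 49.3, 51.1 and 54.98 CPM (-3.34, edgeR adjusted p = 3.37e-08). hrp1Δhrp3Δ differed from hrp3Δ in 18 of 61 units, 11 higher and 7 lower, against 7.91% of all sense entries. The malic enzyme family was higher in hrp1Δhrp3Δ than in hrp3Δ by 3.64 (edgeR adjusted p = 4.10e-07), and cmt2 by 1.65 (1.68e-06).

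Strains measured in more than 1 experiment allowed a test of whether their effect differed. For hrp1Δ, the effect in experiment B differed from that in A-b1 in 5 of 59 units (10.9% of all sense entries). For hrp3Δ it differed in 16 of 59, 14 of them with the higher value in experiment B, against 16.1% of all sense entries, and in 12 higher and 4 lower with factors from sense entries alone (87.5% or 75.0% higher). hrp3 was not lower than WT in the A-b1 libraries of that label and stood at 0.454 of WT in experiment B. In hrp1Δ, hrp1 stood at 0.689 of WT in A-b1 and at 0.19 in experiment B. The part of either gene's level in these differences was not tested. For hrp1Δhrp3Δ, experiments D and B differed in 0 of 61 units by edgeR (0.0% of all sense entries), with 3 at an unadjusted p under 0.05 and 0 by DESeq2. Without the 3 libraries of experiment D that stand apart it was 0 of 62 by edgeR, with 24 at an unadjusted p under 0.05 (0.16% of all sense entries called).

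On the opposite strand, the direction of the called reverse-complement entries of the members depended on the mutant. hrp3Δ of experiment B had 7 higher and 1 lower of 27 tested antisense units (44.0% of all antisense entries), and hrp1Δhrp3Δ 14 and 1 of 27 (59.7% of all). The libraries labelled hrp1-CT(hrp3) had 14 higher and 0 lower of 25 (66.4% of all antisense entries). prf1Δ had 11 and 0 of 32 (36.1% of all), and 21 and 1 of 43 without the 3 libraries (60.1% of all). hrp1Δhrp3Δprf1Δ had 11 and 0 of 32 (28.8% of all), and 19 and 1 of 43 without them (51.5% of all). hrp1Δhrp3Δ of experiment D had 1 and 1 of 32 (28.5% of all), and 4 and 1 of 43 without them (38.4% of all). The members' shares here were near or below those of all antisense entries.

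In hrp1Δ, snf22Δ and some further groups more antisense units were lower than higher. hrp1Δ of experiment B had 0 higher and 5 lower of 27 (12.2% of all antisense entries), snf22Δ 1 and 3 of 16 (16.2% of all) and hrp3-CT(hrp1) 0 and 1 of 25 (5.74% of all). Of 14 antisense units in A-b1, hrp1Δ had 0 higher and 2 lower (13.5% of all antisense entries), hrp3Δ 1 and 2 (46.9% of all), fft2Δ 0 and 1 (12.4% of all) and irc20Δ 0 and 1 (4.46% of all). fft3Δ had 1 higher and 0 lower (11.0% of all antisense entries) and mit1Δ 2 and 0 (3.13% of all). Without WT replicate 1, mit1Δ had 1 and 0 (0.489% of all). Without that library edgeR called 0 units in fft2Δ, hrp1Δ and irc20Δ, with 3, 2 and 2 at an unadjusted p under 0.05 (3.25%, 3.77% and 0.035% of all antisense entries called). In rrp1Δ, rrp2Δ, swr1Δ and fft1Δ edgeR called 0 antisense units, with 1, 2, 3 and 2 at an unadjusted p under 0.05 in edgeR (0.305%, 1.72%, 2.06% and 0.0% of all antisense entries called). DESeq2 called 0 of the 11 units with an adjusted p in swr1Δ and 0 of 16 in fft1Δ, and it gave no adjusted p to any of the 14 in rrp1Δ, rrp2Δ, mit1Δ and irc20Δ. In A-b1 it called 1 lower of 13 in hrp1Δ, 2 lower of 14 in hrp3Δ, 1 lower of 11 in fft2Δ and 0 of 13 in fft3Δ, where the unit called by edgeR, antisense to the malic enzyme family, had no adjusted p. These counts of 5 or fewer were too small to set against the shares of all entries.

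Antisense to the helicase family had 27.1, 24.9 and 28.6 CPM in mit1Δ and 1.502, 1.32 and 1.09 CPM in the libraries labelled fft2Δ, against 5.63, 3.55 and 5.16 CPM in WT of A-b1. mit1Δ stood above WT (2.40, edgeR adjusted p = 2.63e-05, and 2.58, 0.000792, without WT replicate 1) and fft2Δ below it (-1.78, 0.00149), a call that was lost without WT replicate 1 (-1.60, 0.0505). It had 10.4, 12.7 and 10.3 CPM in hrp1Δhrp3Δ and 5.44, 3.81 and 4.43 CPM in hrp3Δ, against 1.62, 1.42 and 1.91 CPM in WT of experiment B (2.38, edgeR adjusted p = 1.58e-05, and 1.17, 0.00932). Both groups lay above WT. The libraries labelled hrp1-CT(hrp3) had 10.5, 10.8 and 9.07 CPM, against 2.86, 2.60 and 3.25 CPM in WT (1.565, edgeR adjusted p = 0.000872), and snf22Δ 7.95, 7.12 and 8.78 CPM, against 3.55, 2.125 and 2.52 CPM in WT of A-b2 (1.59, 0.00104). These 2 groups also lay above their WT.

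In experiment D prf1Δ had 58.8, 52.8 and 73.3 CPM of it and hrp1Δhrp3Δprf1Δ had 70.03, 0 and 60.1 CPM, against 4.71, 0 and 1.01 CPM in WT. prf1Δ lay above WT (3.98, edgeR adjusted p = 0.00604, and 4.13, 0.000395, without the 3 libraries). hrp1Δhrp3Δprf1Δ was called too (4.01, edgeR adjusted p = 0.0087, and 4.40, 0.000538, without the 3 libraries), although its library with 3657 counts was at 0.

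Of 27 genes for heterochromatin and telomere factors (clr1 to clr4, rik1, swi6, the RNA interference genes, taz1, rap1, ccq1 and others), 26 were tested. In fft3Δ 7 were higher and 0 lower, among them taz1, rap1 and ccq1, which is 26.9% of them against 22.3% of all sense entries. In mit1Δ 0 of the remaining 25 were called by edgeR, with 6 at an unadjusted p under 0.05. In the libraries labelled fft2Δ 7 were higher and 2 lower (34.6%, against 31.9% of all sense entries), in those labelled hrp3Δ of A-b1 5 and 1 (23.1%, against 34.0%), and in hrp1Δ of A-b1 4 and 1 (19.2%, against 25.4%). In snf22Δ 0 were higher and 12 lower, among them swi6, taz1 and chp1 (46.2%, against 39.1%), and in hrp1-CT(hrp3) 2 were higher and 11 lower (50.0%, against 54.1%). hrp1Δhrp3Δ of experiment B had 2 higher and 4 lower (23.1%, against 49.6%), hrp3Δ there 0 and 2 (7.69%, against 36.8%), hrp1Δ 1 and 1 (7.69%, against 11.3%) and hrp3-CT(hrp1) 1 and 2 (11.5%, against 9.35%). rrp2Δ and irc20Δ each had 1 higher and 1 lower (7.69%, against 6.95% in rrp2Δ and 21.9% in irc20Δ), and swr1Δ 1 higher and 0 lower (3.85%, against 4.57%). With all libraries most of these shares were near or below those of all sense entries. By edgeR 0 were called in rrp1Δ, in fft1Δ and in the 3 groups of experiment D, where at an unadjusted p under 0.05 there were 3 in rrp1Δ, 2 in hrp1Δhrp3Δprf1Δ and 0 in the others. Without the 3 libraries 0 were higher and 4 lower in hrp1Δhrp3Δ of experiment D (15.4%, against 12.4% of all sense entries), 0 and 9 in prf1Δ (34.6%, against 41.4%) and 0 and 11 in hrp1Δhrp3Δprf1Δ (42.3%, against 33.6%), with clr1, stc1 and taz1 among them in each. Whether these genes have a part in the members' changes was not tested.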

How the data were processed

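RNA was extracted with hot acid phenol, polyadenylated RNA was selected, and directional libraries gave paired-end reads. The authors quantified transcripts with kallisto against Ensembl transcripts of build ASM294v2, and the deposited tables hold estimated counts and TPM (a level per transcript length) with no scaling between libraries. Each table lists 6997 transcripts and as many reverse-complement entries, the antisense entries here. Of the 102 protein-coding members 100 had a length that was a multiple of 3, so lengths are mostly coding lengths. Depth is the total of estimated counts per library, and floors of 3 counts cover counting error only.

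Copies were found by aligning RefSeq ASM294v3 transcript sequences, since no protein table was used here, and all 115 members matched a RefSeq gene of the same length. Counts of copies were summed, rounded to whole numbers and fitted per experiment in R 4.3.3 with limma 3.58.1 and edgeR 4.0.16, whose quasi-likelihood test was run over all groups of that experiment, after filterByExpr (minimum count 10, minimum total 15) and TMM scaling, with Benjamini-Hochberg adjustment over all features. A call is an adjusted p under 0.05, two-sided, and folds of genes at 0 depend on the prior count of 0.125. Effects measured in 2 experiments were compared by an interaction term. The fit was tested on simulated data made from the libraries of A-b2. Alternatives were DESeq2 size factors, TMM factors from sense entries, the DESeq2 1.42.0 Wald test, no filter, each entry alone, a block for the replicate number, each library left out, fits of 2 groups in A-b1, and in experiment D the 3 libraries left out. Floors with TMM-scaled totals, and floors and the heterochromatin list without those 3 libraries, were added after seeing the data.

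Named were the tlh family and the gal genes everywhere, units called in at least 5 comparisons, and in each comparison up to 4 units with the largest rise and fall, without overlap and with a mean of at least 5 CPM in the higher group. Members and lists were chosen with earlier results of these data known. The study names its replicates biological, and the labels give 1 strain per group. All columns of the tables belong to a labelled sample. Of the members, 6 have a near copy outside the clusters that was not summed. Of the heterochromatin list, 1 gene is not reported here and was left out of its counts.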

Additional observations from a re-analysis of the deposited data

Results flagged for a closer look

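For 2 strains measured in experiment B and in A-b1, the difference between the 2 effects on some members was itself past the threshold in the interaction test, which is what singles them out here. Values are log2 differences, experiment B minus A-b1, from a joint fit of both experiments with its own scaling, while the effects come from the fit of each experiment, so that they need not subtract exactly. For hrp1Δ they were 2.07 for cmt2 (effect -0.57 in experiment B and -2.65 in A-b1, edgeR adjusted p = 0.00261), 1.89 for eno102, the enolase gene (0.56 and -1.36, 0.00658), and 1.12 for dak2 (-1.84 and -2.97, 0.00554). They were -1.30 for the pseudogene SPBPB21E7.08 (-1.56 and -0.25, edgeR adjusted p = 0.0181) and -1.13 for the SPAC750.02c transporter family (-0.74 and 0.38, 0.0431), neither of whose own effects passed in both experiments. The libraries labelled hrp1Δ had 0.689 of the hrp1 of WT in A-b1 and 0.19 of it in experiment B, and its part in these differences was not tested.

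For hrp3Δ the difference was largest for SPBPB21E7.11, an uncharacterized protein gene, at 2.96 (effect -0.59 in experiment B and -3.30 in A-b1, edgeR adjusted p = 0.0226). dak2 and eno102 each differed by 2.57 (dak2 -1.60 and -3.96, eno102 0.58 and -1.74), cmt2 by 2.45 (-0.23 and -2.44), SPAC186.04c by 2.30 (0.18 and -1.89) and the SPAC212.08c family of GPI-anchored proteins by 2.30 (1.199 and -0.92). gal7 differed by 1.82 (0.64 and -0.93, each called in its own direction), put4 by 1.34 (1.40 and 0.27), the SPAC750.02c family by 1.06 (0.33 and -0.52, neither called) and the L-asparaginase family of SPAC186.03 by 1.03 (-0.24 and -1.05). SPBPB21E7.11, eno102, cmt2, SPAC186.04c and the SPAC186.03 family were called in A-b1 alone. put4 and the SPAC212.08c family were called in experiment B alone. Smaller differences were 0.97 for yhb1, the nitric oxide dioxygenase gene (0.393 and -0.355, also each called in its own direction), 0.88 for aes1, 0.84 for nhe1 and 0.80 for SPAC977.17. Lower in experiment B were SPAC977.12, by -0.76 (-0.97 and 0.00), and the Vel1p domain family of SPAC977.05c, by -2.14 (-0.35 and 2.08). The libraries labelled hrp3Δ in A-b1 did not have less hrp3 than WT (ratio 1.21), while those of experiment B had 0.454 of it, and its part in these differences was not tested.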

How the results depend on the processing

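Among the 295 calls on single units that the text may name, none changed direction in any alternative run. Over 346 such results, 7758 of 8408 values stayed on their side of the threshold, 611 were no longer past it and 39 were newly past it. Counts of members called stayed within 1.5 times of the reported count except as follows. With DESeq2 size factors and with TMM factors from sense entries rrp1Δ had 1 call each. With the DESeq2 Wald test hrp1Δhrp3Δ of experiment D had 9, and with no filter rrp2Δ had 3. With each entry alone fft3Δ minus fft2Δ had 30, hrp3-CT(hrp1) 23 and hrp1Δhrp3Δprf1Δ 17. With only the 2 groups compared in the fit, fft2Δ had 5, fft3Δ 8, hrp1Δ 17, mit1Δ 6, and rrp1Δ, rrp2Δ and swr1Δ 0. Without the 3 libraries that stand apart hrp1Δhrp3Δ of experiment D had 8, prf1Δ 28 and hrp1Δhrp3Δprf1Δ 26. The cause of these moves was not tested.

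Leaving out 1 library at a time gave 8 to 23 calls in fft2Δ, 13 to 27 in hrp1Δ of A-b1, 7 to 12 in mit1Δ, 1 to 3 in rrp1Δ, 1 to 16 in rrp2Δ, 2 to 12 in irc20Δ and 3 to 9 in swr1Δ. Leaving out WT replicate 1 gave the lowest count in fft2Δ, hrp1Δ, mit1Δ (as did mit1Δ replicate 2), rrp2Δ (as did rrp2Δ replicates 1 and 2) and irc20Δ, WT replicate 3 gave the 16 of rrp2Δ, and swr1Δ replicate 1 gave the 3 of swr1Δ. In experiment D it gave 0 to 6 calls in hrp1Δhrp3Δ (0 without WT replicate 1 or WT replicate 2), 8 to 18 in prf1Δ (8 without prf1Δ replicate 1) and 6 to 15 in hrp1Δhrp3Δprf1Δ (6 without its replicate 1). The difference between experiment B and A-b1 gave 3 to 6 calls for hrp1Δ and 10 to 19 for hrp3Δ (10 without A-b1 hrp3Δ replicate 1 or 2).

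Same-numbered libraries did not deviate together in every pair of any comparison (in hrp1Δhrp3Δ of experiment D their correlations were -0.66, 0.72 and -0.38), so the numbers were not taken as pairs. With the replicate block rrp1Δ had 1 call, hrp1Δhrp3Δ of experiment D 1 and hrp1Δhrp3Δprf1Δ 7, and the other counts stayed within 1.5 times. The spread limited experiment D most, with a biological coefficient of variation of 0.649, against 0.0739 to 0.184 in the fits of the other experiments, and the library with 3657 counts could show few members at all.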
